A study of Rattus norvegicus with 16 samples.

Results

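The miR-15 family is described here by its 4 members named rno-miR-15b, rno-miR-16, rno-miR-195 and rno-miR-497, which were taken by name from the 677 miRNAs on the array and read on all 16 arrays. Each array held the cardiac RNA of 1 rat pup at day 2 after birth. There were 4 female and 4 male HHR pups, and likewise 4 female and 4 male NHR pups. HHR is the Hypertrophic Heart Rat, a strain whose enlarged heart is inherited through many genes, and NHR is its normal-heart comparison strain. The labels do not give litters, so pups of 1 group may be littermates, and p-values measure the spread between these pups of 2 rat lines. The growth protocol names the whole heart, whereas the design text describes ventricles cut away from the atria, so the atrial content of the RNA is not settled. The miRNAs were bulk measurements, in which fewer cells of a type and less RNA per cell cannot be told apart.

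A miRNA guides the silencing complex to mRNAs that pair with its seed, the bases near its 5′ end, and lowers the stability or translation of those mRNAs. Members of the miR-15 family share a seed and are known to repress genes of the cell cycle, among them cyclins and checkpoint kinases. In the mouse heart, miR-195 rises after birth and its early overexpression holds back cardiomyocyte division, while blocking the family lets more cardiomyocytes of newborn mice divide. The family is made from several small gene clusters, each transcribed as a unit. miR-15b and miR-16 can thus come from a shared transcript, and miR-195 and miR-497 from another.

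The mature sequences are shown because the shared seed defines the family and the bases after it tell the members apart. They are RefSeq sequences of the GRCr8 build, written 5′ to 3′, with the seed (bases 2 to 8) in capitals.
miR-15b: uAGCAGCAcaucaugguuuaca
miR-16: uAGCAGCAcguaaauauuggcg
miR-195: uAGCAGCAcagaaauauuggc
miR-497: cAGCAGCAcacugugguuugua
miR-322: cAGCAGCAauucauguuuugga
miR-503: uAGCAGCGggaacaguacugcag

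The first 5 of these are the only ones of 693 mature rat miRNAs in the RefSeq table that carry this seed, and miR-503 differs from them in the last seed base. Pairs that share a gene cluster were not the most alike in sequence. Compared base by base from the 5′ end, miR-16 and miR-195 were identical at 19 of 21 positions, and miR-15b and miR-497 at 16 of 22. The cluster partners miR-15b and miR-16 matched at 14 of 22 positions, and miR-195 and miR-497 at 12 of 21. How much signal each probe takes up from such close relatives was not tested.

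The mature miR-15b and miR-16 lie at chr2:155555197-155555218 and chr2:155555343-155555364 on the plus strand of GRCr8. Their hairpin genes are 51 bases apart and lie inside Smc4, which encodes a condensin subunit that compacts chromosomes for cell division. Further gene copies of miR-16 outside this cluster were not searched for, so its array signal is not assigned to this cluster alone. The mature miR-497 and miR-195 lie at chr10:55450172-55450193 and chr10:55450509-55450529, also on the plus strand. These hairpins are 255 bases apart, and no other gene in the RefSeq table spans both of them. Overlap with either hairpin by itself was not checked. The nearer edge of C10h17orf49 lies 66 bases from the miR-195 hairpin. The relatives miR-322 and miR-503 are X-linked, with miR-322 at chrX:137726198-137726219 and miR-503 at chrX:137725899-137725921, both on the minus strand.

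Levels are log2 values of the scanner's background-corrected signal, after each array was divided by the 75th percentile of its own 258 scaling probes, those well above background on every array. The 75th percentile before scaling was 418 to 525 on the 8 HHR arrays, against 295 to 503 on the 8 NHR arrays, where 3 NHR arrays (female 3, male 2 and male 4) lay above 400. The scanner software detected 204 to 235 miRNAs per HHR array and 200 to 239 per NHR array, and no spot of a miRNA probe was saturated. Differences were tested with limma across the 233 miRNAs detected on at least 4 arrays, with Benjamini-Hochberg adjustment over all 233 and a call at an adjusted p under 0.05. HHR differed from NHR in 127 of the 233 miRNAs (54.5%), of which 21 (9.01%) were higher and 106 (45.5%) lower in HHR. The median difference over the 233 was -0.11, so a small negative difference was common on this scale. The split turned with the scaling, with 39 of 98 calls lower in HHR after quantile normalization and 21 of 155 with the 75th percentile of all probes.

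All 4 members were detected on all 16 arrays, through 8 probes with 10 spots each. All 4 were called lower in HHR than in NHR hearts, against the background of 45.5% called lower, and they moved by different amounts. miR-195 was 1.27-fold and miR-497 1.26-fold lower in HHR, with no overlap between the strains, whereas miR-15b was 1.07-fold and miR-16 1.08-fold lower, with overlapping arrays. These values depended on how the arrays were scaled. With the 75th percentile of all probes, miR-15b and miR-16 stood higher in HHR, and miR-195 and miR-497 were not called at -0.062 and -0.055. With no scaling, spike-in scaling or the authors' deposited table, none of the 4 was called.

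miR-195 is the member named above as rising after birth in the mouse heart. Its log2 levels were 5.28, 5.43, 5.30 and 5.36 in HHR females and 5.30, 5.42, 5.43 and 5.44 in HHR males. They were 5.75, 5.71, 5.74 and 5.76 in NHR females and 5.80, 5.70, 5.73 and 5.48 in NHR males. Every HHR pup was below every NHR pup, and NHR male 4, the lowest NHR array, was closer to the highest HHR array than to the other NHR arrays. The mean was 5.37 ± 0.07 in HHR and 5.71 ± 0.10 in NHR hearts (SD, 8 pups a strain). The difference was -0.34 (SE 0.042, 95% interval -0.43 to -0.25, limma adjusted p = 2.3e-05).

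miR-497, transcribed with miR-195, followed the same order. Its levels were 5.63, 5.72, 5.70 and 5.71 in HHR females and 5.65, 5.78, 5.75 and 5.76 in HHR males. They were 6.07, 6.02, 6.05 and 6.12 in NHR females and 6.12, 6.01, 6.07 and 5.92 in NHR males. Here too every HHR pup was below every NHR pup. The mean was 5.71 ± 0.05 in HHR and 6.05 ± 0.06 in NHR hearts (SD, 8 pups a strain). The difference was -0.33 (SE 0.032, 95% interval -0.40 to -0.27, limma adjusted p = 1.4e-06). Of all 233 miRNAs, 26 (11.2%) had every HHR array below every NHR array, and miR-195 and miR-497 were among them. In the order of strain differences from the most negative, miR-195 was 47 and miR-497 was 48 of 233.

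miR-15b, the first miRNA of the Smc4 cluster, had levels of 9.61, 9.59, 9.58 and 9.68 in HHR females and 9.69, 9.69, 9.68 and 9.61 in HHR males. They were 9.82, 9.77, 9.72 and 9.83 in NHR females and 9.77, 9.70, 9.71 and 9.60 in NHR males. The strains overlapped through NHR male 4, and the HHR pup was the lower one in 58 of the 64 HHR and NHR pairings. The mean was 9.64 ± 0.05 in HHR and 9.74 ± 0.08 in NHR hearts (SD, 8 pups a strain). The difference was -0.10 (SE 0.029, 95% interval -0.16 to -0.035, limma adjusted p = 0.0131).

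miR-16, the other miRNA of the Smc4 cluster, had levels of 10.53, 10.54, 10.56 and 10.60 in HHR females and 10.57, 10.52, 10.59 and 10.54 in HHR males. They were 10.67, 10.66, 10.75 and 10.66 in NHR females and 10.72, 10.60, 10.69 and 10.55 in NHR males. The HHR pup was the lower one in 59 of 64 pairings, and the overlap came from NHR males 2 and 4. The mean was 10.56 ± 0.03 in HHR and 10.66 ± 0.06 in NHR hearts (SD, 8 pups a strain). The difference was -0.11 (SE 0.028, 95% interval -0.17 to -0.046, limma adjusted p = 0.00687). miR-16 was 117 of 233 in the order of strain differences, so its difference was the median one, and miR-15b was 121.

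**Figure D1:**
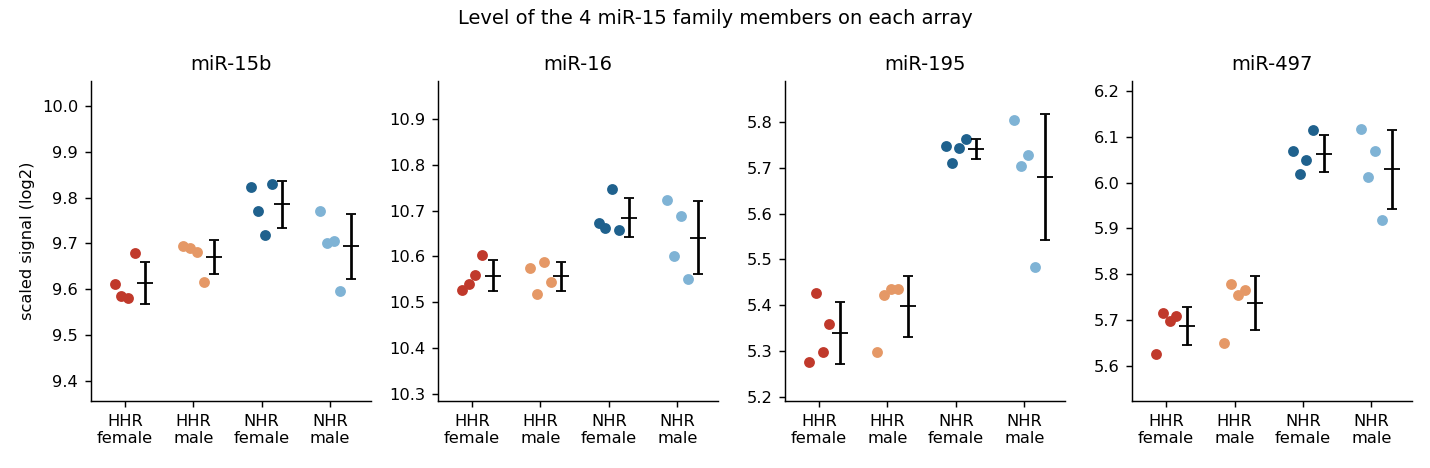
Log2 scaled signal of each member on each of the 16 arrays, with both HHR groups left of the NHR groups. Points are pups and bars are group means ± SD (n = 4). All panels span the same range of log2 units. The HHR and NHR points are apart for miR-195 and miR-497 and overlap for miR-15b and miR-16.

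Each member was read by 2 probes, which gives a second look at each difference. For miR-195 the brighter probe, well above background on all 16 arrays, differed by -0.33 (SE 0.039, limma adjusted p = 1.1e-05 over 355 probes). The dimmer miR-195 probe was well above background on 5 of 8 HHR and 6 of 8 NHR arrays and differed by -0.38 (SE 0.064, adjusted p = 0.000311), with overlapping arrays. Its signal before scaling was 14.2 to 25.0, against a standard deviation of 2.45 to 3.02 of the negative control spots.

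The miR-497 probes differed by -0.34 and -0.32, and each had every HHR array below every NHR array. The miR-15b probes differed by -0.10 and -0.091 and the miR-16 probes by -0.11 and -0.078. All 8 probes of the members were called lower in HHR, against 46.8% of the 355 probes tested, and the probes of 1 miRNA are not replicates. Each probe of miR-195 and miR-497 had a more negative difference than every probe of miR-15b and miR-16.

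The opposite arms of the hairpins were also on the array. miR-15b*, miR-16*, miR-195* and miR-497* were detected on 0 of 16 arrays, so the comparison could be made only for the guide strands named above.

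The next comparison set the pairs against each other within each array. Subtracting the log2 level of miR-16 on the same array removes any factor that multiplies a whole array, so the result does not depend on the choice of that factor. In the following values the NHR mean of each ratio is set to 0. Relative to miR-16, miR-195 ranged from -0.32 to -0.14 with a median of -0.25 in HHR, against -0.11 to 0.057 with a median of 0.015 in NHR. miR-497 relative to miR-16 ranged from -0.31 to -0.12 with a median of -0.23 in HHR, against -0.081 to 0.074 with a median of 0.0038 in NHR. For both ratios the 8 HHR pups were below the 8 NHR pups without overlap, which held for 5.6% of the other 232 miRNAs set against miR-16.

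The miR-195 to miR-16 ratio was 1.18-fold lower in HHR, a difference of -0.24 (SE 0.036, 95% interval -0.31 to -0.16, limma adjusted p = 0.000179 over 232 miRNAs). The miR-497 to miR-16 ratio was 1.17-fold lower, a difference of -0.23 (SE 0.031, 95% interval -0.29 to -0.16, limma adjusted p = 4.3e-05). Relative to miR-16, 34.5% of the 232 miRNAs were called, with 15.9% lower and 18.5% higher in HHR. Taking miR-15b in place of miR-16 gave -0.24 for miR-195 (adjusted p = 0.000187) and -0.24 for miR-497 (adjusted p = 3.5e-05), where 15.9% of 232 were called lower.

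Within each pair no difference was called. miR-15b relative to miR-16 ranged from -0.057 to 0.094 in HHR and from -0.10 to 0.096 in NHR, and all 8 HHR pups lay within the NHR range. Its strain difference was 0.0087 (SE 0.030, 95% interval -0.056 to 0.074, limma adjusted p = 0.832). miR-195 relative to miR-497 ranged from -0.065 to 0.046 in HHR and from -0.098 to 0.028 in NHR. Its strain difference was -0.0077 (SE 0.025, 95% interval -0.062 to 0.046, limma adjusted p = 0.805). The intervals within the pairs span 0, and they do not reach the intervals of the comparisons across the pairs.

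**Figure D2:**
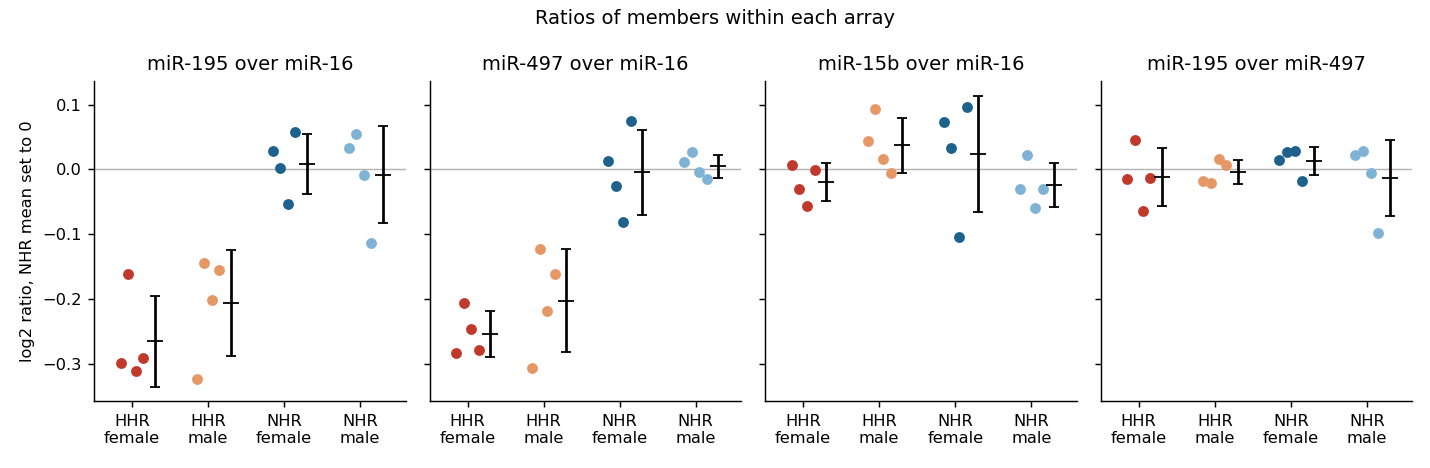
Log2 ratio of member levels within each array, with the NHR mean of each ratio set to 0. Groups run from HHR females and males on the left to NHR females and males on the right. Points are pups and bars are group means ± SD (n = 4). The HHR points lie below the NHR points for miR-195 and miR-497 over miR-16, and overlap them for miR-15b over miR-16 and miR-195 over miR-497.

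The strain order of miR-15b and miR-16 changed with the scaling, and so did the size and the calls of the miR-195 and miR-497 differences. With no scaling at all, miR-15b and miR-16 were higher in HHR by 0.24 (SE 0.12, adjusted p = 0.109) and 0.23 (SE 0.12, adjusted p = 0.138), and neither was called. On that scale miR-195 differed by -0.0031 and miR-497 by 0.0047, with SE of 0.12 each, and the median of all 233 miRNAs was 0.23. Scaling on the 75th percentile of all probes made miR-15b and miR-16 called higher in HHR by 0.18 and 0.17 (adjusted p = 0.00455 and 0.00452), and miR-195 and miR-497 were not called at -0.062 and -0.055.

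Quantile normalization left miR-15b and miR-16 near 0, at -0.018 and -0.0069, and miR-195 and miR-497 called lower at -0.21 and -0.22. Centring on the median of the tested miRNAs gave 0.077 and 0.068 for miR-15b and miR-16, and -0.17 and -0.16 for miR-195 and miR-497, of which the last pair was called. The differences relative to miR-16 are the same by construction under any scaling that multiplies a whole array. Of the scalings named here, quantile normalization alone could move them, and it gave -0.20 for miR-195 (adjusted p = 0.000255) and -0.21 for miR-497 (adjusted p = 2.8e-06), both called lower. Measured from the median miRNA on the main scale, miR-195 stood at -0.24 and miR-497 at -0.23, while miR-16 stood at 0 and miR-15b at 0.0087. As miR-16 had the median difference itself, these values repeat the differences relative to miR-16 and are no separate measurement.

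**Figure D3:**
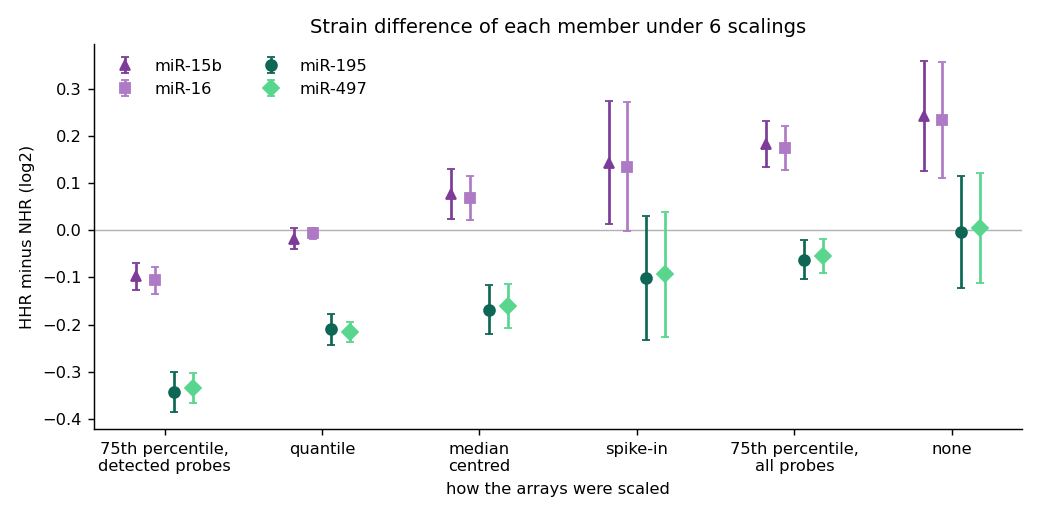
HHR minus NHR difference in log2 level (vertical axis) with its standard error for each member, under 6 ways of scaling the arrays (horizontal axis). miR-15b and miR-16 move together from below 0 to above 0 as the scaling changes, and miR-195 and miR-497 stay below them. The gap between the pairs is fixed by construction under every scaling shown other than quantile normalization.

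The gap was not lost when 1 array was left out. Without each array in turn, the miR-195 difference relative to miR-16 was between -0.25 and -0.22 and the miR-497 difference between -0.24 and -0.21, with every call kept. Slide 1 held replicates 1 and 2 of every group and slide 2 replicates 3 and 4. Within slide 1 the differences relative to miR-16 were -0.26 for miR-195 (adjusted p = 0.0329) and -0.24 for miR-497 (adjusted p = 0.0350). Within slide 2 they were -0.21 (adjusted p = 0.0463) and -0.22 (adjusted p = 0.0422).

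Array brightness moved with strain, since 5 NHR arrays were dimmer than every HHR array. Across all 16 arrays, with brightness as a covariate, miR-195 and miR-497 differed from miR-16 by -0.21 (adjusted p = 0.00462) and -0.20 (adjusted p = 0.00133). The 8 HHR arrays and the 3 NHR arrays above 400 were also compared by themselves, a choice made after seeing the data. Their miR-195 to miR-16 ratios were -0.32 to -0.14 in HHR and -0.11 to 0.055 in NHR, and their miR-497 to miR-16 ratios were -0.31 to -0.12 in HHR and -0.081 to 0.027 in NHR. The differences on these 11 arrays were -0.20 for miR-195, which was not called (adjusted p = 0.0579), and -0.19 for miR-497 (adjusted p = 0.0207).

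Background treatment and the authors' own values changed 3 of these calls. After normexp background correction the miR-195 difference relative to miR-16 was -0.22 (adjusted p = 0.0626). In the authors' deposited table of normalized values the differences relative to miR-16 were -0.22 for miR-195 (adjusted p = 0.153) and -0.21 for miR-497 (adjusted p = 0.121), fitted with limma on those values. The sizes stayed near those of the main fit while the standard errors grew to 0.080 and 0.071, and neither the signal column nor the background and scaling steps behind that table are given in the sources used here. Its column medians were 6.13 to 6.14 on HHR arrays and 6.13 to 6.15 on NHR arrays, and it ranked the tested miRNAs nearly as the main scale did (Spearman's rho across miRNAs of 0.996 to 0.997 on each array).

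In the order of their group means on the main scale, miR-15b ran from 9.61 ± 0.05 in HHR females through 9.67 ± 0.04 in HHR males and 9.69 ± 0.07 in NHR males to 9.79 ± 0.05 in NHR females (SD, n = 4 each). The middle pair, HHR males and NHR males, did not differ beyond its spread. For miR-16 the HHR groups were 10.56 ± 0.03 in females and males alike, below 10.64 ± 0.08 in NHR males and 10.69 ± 0.04 in NHR females. For miR-195 the order was 5.34 ± 0.07 in HHR females, 5.40 ± 0.07 in HHR males, 5.68 ± 0.14 in NHR males and 5.74 ± 0.02 in NHR females. For miR-497 it was 5.69 ± 0.04, 5.74 ± 0.06, 6.03 ± 0.09 and 6.06 ± 0.04 in the same order of groups. For both, the step between the strains was wider than the spread of either neighbour, and the groups of 1 strain overlapped.

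No member was called for sex. The male minus female difference was -0.018 for miR-15b, -0.022 for miR-16, -0.0013 for miR-195 and 0.0078 for miR-497, with limma adjusted p of 0.970 to 0.983. Of all 233 miRNAs, 0 were called for sex (0%), and 23 had an unadjusted p under 0.05. The strain difference was called in females for all 4 members, against 38.6% of the 233 called lower, and in males for 2 members, miR-195 and miR-497, against 16.7%.

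In females HHR differed from NHR by -0.17 for miR-15b, -0.13 for miR-16, -0.40 for miR-195 and -0.38 for miR-497. In males the differences were -0.023, -0.085, -0.28 and -0.29 in the same order, and miR-15b (adjusted p = 0.701) and miR-16 (adjusted p = 0.140) did not pass. The difference between the sexes was tested directly as an interaction, and 0 of 233 miRNAs passed (0%), with 9 at an unadjusted p under 0.05. miR-15b was the member with the smallest interaction p, at 0.15 log2 units (unadjusted p = 0.0230, adjusted p = 0.929). Relative to miR-16, miR-195 differed by -0.27 in females and -0.20 in males, and miR-497 by -0.25 and -0.21, all of them called lower in HHR.

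Animals of 1 group also varied together within the pairs to different degrees. After the mean of its own group was subtracted from each array, miR-195 and miR-497 had a Pearson r of 0.91 over the 16 arrays, which share the scaling factor of each array. The other 5 pairings of members had r between 0.44 and 0.56, including 0.44 for miR-15b with miR-16. NHR male 4 was the lowest NHR array for all 4 members, and the other 5 pairings rested on it. Without it, a choice made after seeing the data, they had r between 0.088 and 0.23 over 15 arrays, including 0.13 for miR-15b with miR-16, while miR-195 with miR-497 had 0.86. The within-group standard deviation was 0.053 for miR-15b, 0.051 for miR-16, 0.084 for miR-195 and 0.059 for miR-497.

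**Figure D4:**
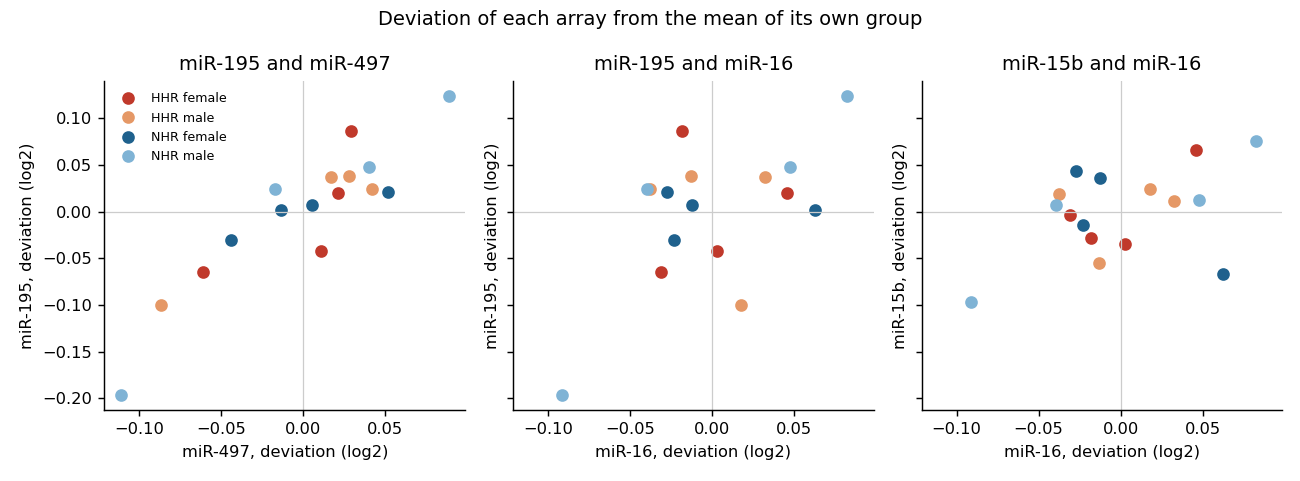
Deviation of each array from the mean of its own group in log2 units, for 3 pairings of members over 16 arrays. Points are pups, coloured by group. miR-195 and miR-497 lie along a line (r = 0.91), and the pairings that include miR-16 are more scattered, with r of 0.56 and 0.44. The NHR male point at the lower left of each panel is NHR male 4.

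Among the other 182 miRNAs detected on every array, likeness was measured as the same within-group r over 16 arrays and is a description only. miR-93 (r = 0.86), miR-503 (0.82) and miR-425 (0.76) were most like miR-16. miR-342-3p (0.85), miR-146a (0.85) and miR-664 (0.81) were most like miR-15b. For miR-195 the most alike were miR-503 (0.81), miR-100 (0.80) and miR-128 (0.79), and for miR-497 let-7b (0.77), miR-99a (0.76) and miR-151 (0.76). Without NHR male 4 the r of these 12 pairings lay between 0.65 and 0.79.

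The 2 seed relatives named above, miR-322 and miR-503, were not called lower in HHR. No wider search was made for miRNAs with a near or shifted seed. miR-322, which has the family seed, had medians of 9.46 in HHR females and 9.45 in HHR males, against 9.55 in NHR females and 9.46 in NHR males. Its strain difference was -0.064 (SE 0.030, limma adjusted p = 0.0799), and relative to miR-16 it was 0.042 (adjusted p = 0.317), so it was called on neither scale. miR-503, whose last seed base differs, had medians of 6.85 and 6.78 in HHR females and males, against 6.65 and 6.58 in NHR females and males. It was called higher in HHR by 0.20 (SE 0.040, limma adjusted p = 0.0013). The strains did not overlap, but only narrowly, with 6.744 in HHR male 1 and 6.742 in NHR female 3. Such a separation in this direction was shown by 3% of the 233. Relative to miR-16, miR-503 was higher by 0.31 (SE 0.028, adjusted p = 6.7e-07).

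The opposite arm miR-322* was called higher by 0.079 (SE 0.027, adjusted p = 0.0263), and miR-503* was detected on 0 of 16 arrays. No array entry is named miR-424 or miR-15a.

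**Figure D5:**
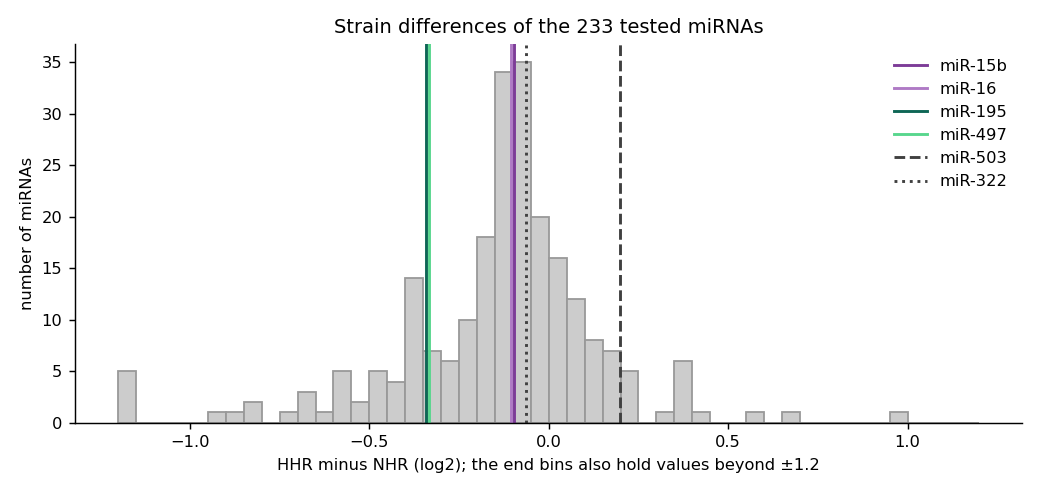
Histogram of the HHR minus NHR difference in log2 level (horizontal axis) for the 233 tested miRNAs (number of miRNAs on the vertical axis), with the 4 members and the relatives miR-503 and miR-322 as vertical lines. miR-15b and miR-16 lie in the tallest part of the histogram, miR-195 and miR-497 to the left of it, and miR-503 to the right.

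Other miRNAs reported to act on cardiomyocyte division were counted as 2 lists, set against all tested miRNAs, of which 9.01% were called higher and 45.5% lower in HHR. Of 8 tested miRNAs reported to promote division, 1 was called higher in HHR and 0 lower. Most of the 8 belong to the miR-17 to miR-92 cluster. The median difference of the 8 was 0.035, beside -0.11 for all 233. The called one was miR-31, detected on 13 of 16 arrays and higher by 0.69 (SE 0.26, adjusted p = 0.0417). Relative to miR-16, 7 of the 8 were called higher, with a median of 0.14, where 18.5% of all 232 were called higher. Most of these 7 were members of that cluster, which are transcribed together, so they are not independent counts. Of 17 tested miRNAs reported to restrain division, 1 was called higher and 5 lower, against 9.01% and 45.5% of all 233, with a median of -0.064. miR-34a, known to target cell cycle and survival genes, was higher in HHR by 0.96 (SE 0.048, adjusted p = 1.5e-09), and let-7d, a member of the let-7 family that favours differentiation, was called lower at -0.13 (SE 0.022). Relative to miR-16, 3 of the 17 were called higher and 0 lower, against 18.5% and 15.9% of all 232.

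Markers of cell types were counted from fixed lists, to be read against the 9.01% of all 233 miRNAs called higher and the 45.5% called lower in HHR, or the 15.9% of 232 called lower relative to miR-16. Of 5 tested cardiomyocyte miRNAs, 0 were called higher and 3 lower (miR-133b, miR-208b-3p and miR-499), with a median of -0.15, and relative to miR-16 only miR-499 was called, lower at -0.17 (adjusted p = 0.000388). The cardiac miR-208 was detected on no array. The endothelial miR-126 and its opposite arm miR-126* were both called lower in HHR, and both were also lower relative to miR-16. Arms of the same hairpin are not independent counts. Their summed signal was 964 to 1077 in HHR and 1157 to 1272 in NHR. Of 3 tested leukocyte miRNAs, 2 (miR-150 and miR-223) were called lower, and both stayed lower relative to miR-16. The remaining miR-142-3p was not called, at -0.11 (SE 0.092, limma adjusted p = 0.318). Relative to miR-16 it differed by -0.0018 (adjusted p = 0.988). The leukocyte sum was 92.1 to 107 in HHR and 110 to 148 in NHR.

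Of 5 fibroblast and smooth muscle miRNAs, 1 was called higher and 2 lower. Their sums overlapped, at 2544 to 2976 in HHR and 2594 to 2909 in NHR. Relative to miR-16, 3 of the 5 (miR-199a-3p, miR-199a-5p and miR-214) were called higher and 0 lower, with a median of 0.23. Of all 232 miRNAs, 18.5% were called higher and 15.9% lower relative to miR-16. The red cell miRNAs miR-144 and miR-451 were not called, with sums of 199 to 307 in HHR and 209 to 332 in NHR. The liver miR-122 and the brain miR-124 and miR-9 were detected on no array. The skeletal muscle miR-206 was detected on 4 of 16 arrays and was not called, at -0.40 (SE 0.42). On the main scale, the endothelial and leukocyte sums were lower in HHR with no overlap between the strains. miR-195 and miR-497 were too, among the 11.2% of the 233 miRNAs with such a separation. The median difference of all 233 miRNAs was -0.11 on that scale, and the sums are given on that scale only. The part of these cell types in the miR-195 and miR-497 differences was not tested.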

How the data were processed

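Cardiac RNA of 16 pups (100 ng per array, per the labels' protocols) was labelled with Cy3 and hybridised to 1-colour Agilent rat miRNA arrays. The authors deposited scanner output from Feature Extraction 10.7.3.1 holding intensity values per spot (background-corrected processed signal, median signal, background), with other columns, per the file headers, flagging outliers, saturation and detection, and a table of log2 values made with limma per the submitters' processing notes. Here outlier spots were left out, spots averaged per probe, arrays scaled on the 75th percentile, probes averaged per miRNA, a floor of 1.88 applied and log2 taken. A model with a mean for each strain and sex was fitted with limma 3.58.1 in R 4.3.3, tested on simulated data first; arrays limit the precision by their number. Groups came from the labels, and pups are separate animals. Alternatives covered scaling, background, filters, floor, probes, slide and left-out arrays. The text names the 4 members, their opposite arms, seed relatives, the 3 most alike miRNAs, up to 3 called miRNAs of each list, and markers. Members and lists were chosen with earlier results of these data known.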

Additional observations from a re-analysis of the deposited data

Results flagged for a closer look

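Of 60 sets of 4 or 8 values checked with Dixon's test at its 95% limit, 7 had an array far from the others, and chance gives about 1 in 20. For miR-15b, HHR male 4 had a log2 level of 9.61, with the next HHR male at 9.68. For miR-16, NHR female 3 had 10.75, with the next NHR female at 10.67. For miR-195, HHR male 1 had 5.30, with the next HHR male at 5.42, and NHR male 4 had 5.48, with the next of the 8 NHR arrays at 5.70. For ratios with the NHR mean at 0, miR-195 over miR-16 was -0.16 in HHR female 2, with the next HHR female at -0.29. The ratio of miR-195 over miR-15b was 0.052 in NHR female 3, with the next NHR female at -0.031. The ratio of miR-195 over miR-497 was -0.098 in NHR male 4, with the next NHR array at -0.017. These arrays stayed in every comparison unless left out by name.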

How the results depend on the processing

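Differences are HHR minus NHR in log2 units, and "relative" means relative to miR-16. Leaving out 1 array at a time gave -0.11 to -0.085 for miR-15b, -0.12 to -0.093 for miR-16, -0.38 to -0.32 for miR-195 and -0.35 to -0.32 for miR-497, and -0.25 to -0.22, -0.24 to -0.21 and -0.013 to 0.021 for miR-195, miR-497 and miR-15b relative, with 3 to 4 members called in females and 2 in males. The uncalled miR-15b relative difference turned negative without HHR male 2 (-0.00073) and NHR female 3 (-0.013), with quantile normalization (-0.011), normexp (-0.0016), mean log2 probes (-0.00063), array weights (-0.0096) and the authors' table (-0.011).

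For miR-15b and miR-16, quantile normalization gave -0.018 and -0.0069 (not called), the 75th percentile of all probes 0.18 and 0.17 (called higher), no scaling 0.24 and 0.23, median centring 0.077 and 0.068, spike-in scaling 0.14 and 0.13, the scanner's total gene signal -0.036 and -0.044, the authors' deposited values 0.20 and 0.21, brightness as a covariate -0.056 and -0.089, slide 1 -0.12 and -0.13, and slide 2 -0.074 and -0.087, the last 8 of these settings without a call. miR-16 was not called with normexp (-0.067), nor miR-15b on the bright arrays (-0.042). miR-195 and miR-497 lost their calls with the 75th percentile of all probes (-0.062 and -0.055), no scaling (-0.0031 and 0.0047), spike-in scaling (-0.10 and -0.094) and the authors' table (-0.0059 and -0.00015). Relative to miR-16, miR-195 lost its call with normexp (-0.22), the authors' table (-0.22) and the bright arrays (-0.20), and miR-497 with the authors' table (-0.21). The cause of these changes was not tested.

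Members called in females and males numbered 4 and 2 in the main setting. They numbered 2 and 2 with quantile normalization, 1 and 1 with the 75th percentile of all probes, 0 and 0 with no scaling, median centring, spike-in scaling and the authors' table, 2 and 1 with total gene signal, 3 and 0 with normexp, 2 and 2 with brightness, 2 and 0 within each slide, and 3 and 1 on the bright arrays. Over all 233 miRNAs, 127 calls became 48 with no scaling, 25 with spike-ins, 70 with total gene signal, 15 in the authors' table, 74 with brightness, 61 on bright arrays, and 37 and 47 within slides 1 and 2. The share lower in HHR also changed, with 106 of 127 calls lower in the main setting, 39 of 98 after quantile normalization, 21 of 155 with the 75th percentile of all probes, 27 of 87 after median centring, 10 of 48 with no scaling, 10 of 25 with spike-ins, 36 of 70 with total gene signal, 2 of 15 in the authors' table, and 162 of 164 with normexp.

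Replicate numbers are shared between groups. Same-numbered arrays had deviations correlated at r of -0.22 to 0.53, 16 of 24 pairings were over 0.1, and 4 of 16 arrays matched their own number best. These correlations cannot tell whether same-numbered pups share a litter or a batch, and the labels do not say. The main fit treated the pups as unpaired. With the replicate block, 124 miRNAs were called, miR-195 and miR-497 kept -0.34 and -0.33, and no call on a member changed. The dimmer miR-195 probe was well above background on 11 of 16 arrays, and the other 7 member probes on all 16.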
